A study of Mus musculus with 6 samples.

Results

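The genes of the mitochondrial respiratory chain and of ATP synthase were compared between Gr1lo and Gr1hi myeloid cells of mouse bone marrow. They were chosen by symbol: all genes of the platform annotation starting with Nduf, Uqcr or Atp5, or with Cox followed by a digit from 4 to 8, together with Sdha, Sdhb, Sdhc and Sdhd. Of 18193 genes with a probe set that names a single gene, 90 met this rule, each read from its brightest such probe set (mean of the 6 arrays). The rule uses symbols and mean brightness, not the difference between the groups. Of the 90 genes, 85 passed a filter on low values and were tested. The other 5 were Ndufa4l2, Ndufb4, Cox4i2, Cox7a1 and Cox7b2, whose probe sets had group means of 2.68 or lower. Another 10 probe sets that carry the symbol of such a gene beside other symbols were not used.

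Both groups came from femur and tibia marrow of HdcGFP mice on a C57BL/6 background, in which green fluorescent protein reports the gene of histidine decarboxylase. All cells were sorted for GFP (positive or high) and for the myeloid integrin CD11b, then divided by the antigen Gr1: 3 arrays hold Gr1lo cells and 3 hold Gr1hi cells. No treatment is named, ages are not given, and whether each replicate is an animal of its own is not stated, so the p-values describe the spread among these 6 samples, which may be technical. One description, that of Gr1lo replicate 3, can be read as GFP-negative, although its title is that of the other Gr1lo arrays. Values are log2 probe set values, and every difference is Gr1hi minus Gr1lo on that scale, so that -1 is a halving.

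Respiratory complexes I to IV pass electrons from NADH and succinate to oxygen and pump protons out of the mitochondrial matrix, except for complex II, which pumps none. Complex V, the ATP synthase, lets the protons return through a rotating ring and uses that flow to make ATP. Most subunits are encoded in the nucleus, as are all genes chosen here, while a core set is encoded in mitochondrial DNA. Neutrophils, the main CD11b-positive, Gr1-positive cells of marrow, are known for having few mitochondria and for drawing mainly on glycolysis.

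Marker genes fixed as lists were read as a check of the labelled cells. Neutrophil markers such as S100a8 (14.87 ± 0.05 in Gr1lo and 14.94 ± 0.03 in Gr1hi, SD, n = 3) were abundant in either group, and 5 of 11 rose in Gr1hi while 0 fell. All 4 early granulocyte genes, which encode proteins of primary granules, fell (median difference -4.42); the log2 of their summed level ran from 15.13 to 15.51 in Gr1lo and from 10.62 to 11.57 in Gr1hi, so the groups differed in these markers along with the respiratory genes. Of 6 monocyte markers Csf1r rose and F13a1 fell (log2 sums of 9.92 to 10.95 and of 11.87 to 12.17), of 3 tested macrophage markers Adgre1 rose and Vcam1 fell (10.13 to 10.66 and 7.67 to 8.18), and of 2 tested T and NK cell markers Cd3d rose (5.02 to 5.72 and 8.47 to 8.75). C1qa and C1qc of macrophages and Cd3e and Cd3g of T cells lay below 2.85 in both groups, close to the highest value of the absent-transcript controls (2.77). The erythroid list had log2 sums between 4.15 and 4.56 on all arrays. Basophil and mast cell markers fell in 1 of 4 tested, eosinophil markers changed in 0 of 2, B cell markers rose in 2 of 4 and fell in 1, platelet markers rose in 1 of 4 and fell in 1, and those of stroma and endothelium rose in 2 of 3. The samples are labelled female, but the Y-linked gene Eif2s3y read at least 9.02 on every array. Xist was high only on the replicate 3 array of each group (10.95 and 10.14, against at most 2.43 on the others). In sorted bulk cells, fewer cells of a type and less RNA per cell cannot be told apart, and the part of these markers in the respiratory genes' differences was not tested.

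Respiratory chain and ATP synthase transcripts were mostly lower in Gr1hi cells. On the deposited scale 65 of 85 tested genes fell (76.5%), 2 rose (2.35%) and 18 did not pass the test (limma adjusted p under 0.05). Over all 12739 tested genes of the array, 31.8% fell and 24.6% rose. Of the 85 genes, 28 fell at least 2-fold, where 19.4% of all tested genes did so, and 0 rose at least 2-fold, against 10.6%. The groups did not overlap in 74 of the 85, against 65.5% of all tested genes. The median difference was -0.67, beside 0.03 for all tested genes. Without both replicate 3 arrays, 57 genes fell and 2 rose, beside 29.3% and 21.5% of all tested genes.

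The count of falls depended on how the arrays were set on a common scale. On a median-centred scale, where each array is set to the median of its tested genes, the median difference of all genes was 0.70, and 30 respiratory genes fell and 29 rose (18.2% and 65.6% of all tested genes). On a control-centred scale, set by the hybridization controls, transcripts added in fixed amounts, it was -0.23, and 72 fell and 0 rose (38.1% and 14.6%). On each of the 3 scales the median respiratory gene lay 0.70 below the median of all genes, since centring moves every gene by the same amount. A group of 30 genes fell on all 3 scales, 0 rose on all 3, and 9 fell as deposited but rose on the median-centred scale (Ndufb7, Ndufb11, Uqcr10, Uqcrh, Cox4i1, Cox6b1, Cox8b, Atp5e and Atp5md). Of these 9, Cox8b had a mean of 2.73, within the absent-transcript level. Of those 30, 21 were complex I genes (assembly factors included), 5 complex V, 2 complex IV and 1 each complex II and complex III.

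**Figure D1:**
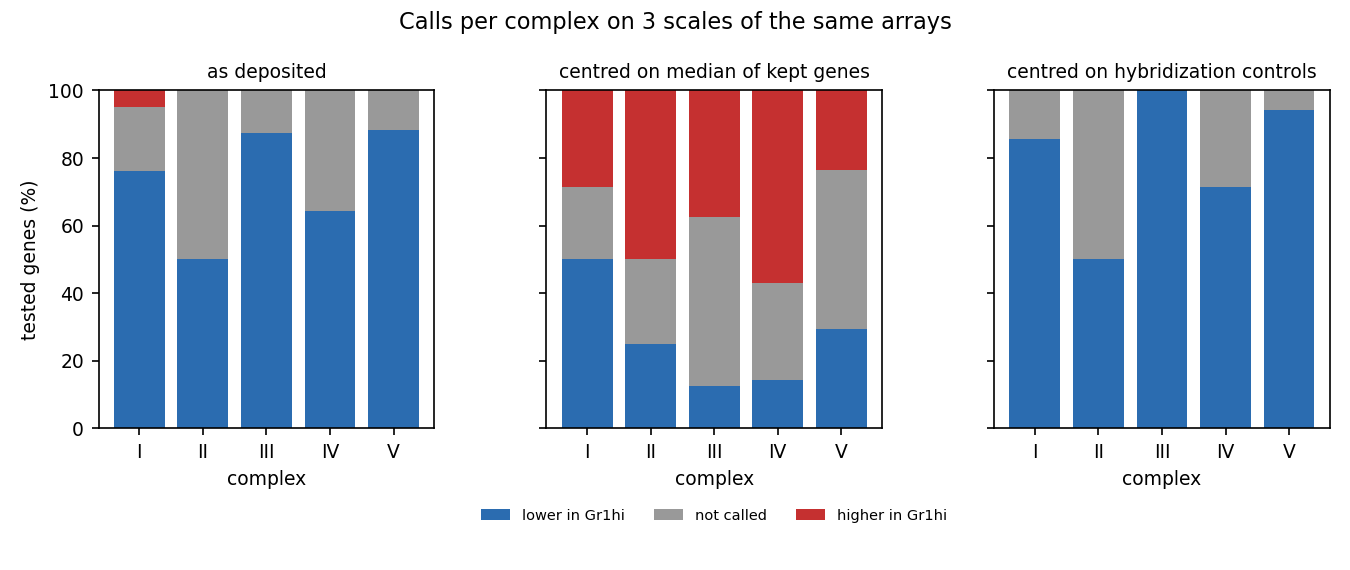
Share of tested genes (%) of complexes I to V called lower (blue), higher (red) or not called (grey) in Gr1hi, on 3 scales of the same 6 arrays. Complex I takes in 8 assembly factor genes. On the deposited scale 32 of 42 complex I genes are lower, with 21 on the median-centred and 36 on the control-centred scale. For complex IV the 9 of 14 lower become 2, with 8 higher, on the median-centred scale and 10 on the control-centred scale. Those 8 take in Cox6a2, Cox8b and Cox8c, whose probe sets lie near the absent-transcript level.

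On the deposited scale, with the brightest probe set of each gene, complex I had the lowest median of the 5 complexes. With the dimmest tested probe set it stood at -0.49, above complex III (-0.64) and complex V (-0.57). Among those dimmest were probe sets of Ndufab1, Ndufa10 and Ndufs8 with means of 2.77, 2.85 and 3.38, near the highest absent-transcript control (2.77). Of 29 respiratory genes called lower with several probe sets of mean 5 or more, the dimmest of these fell more in 19 and less in 10. The median difference was -1.17 for complex I (42 genes), -0.69 for complex V (17 genes), -0.66 for complex III (8 genes), -0.32 for complex II (4 genes) and -0.31 for complex IV (14 genes). Those 42 genes take in 8 assembly factors and Ndufa4, while assembly factors of the other complexes were listed apart. Without its assembly factors complex I stood at -0.90 (34 genes, Ndufa4 included). Complex IV takes in Cox6a2, Cox8b and Cox8c, whose probe sets lie near the absent-transcript level. The 9 tested genes of its common or single forms had a median of -0.48. On the median-centred scale complex I stood at -0.50 and complex V at -0.02, while complexes II, III and IV turned to 0.36, 0.02 and 0.36. Complex I, assembly factors included, was also lowest on each Gr1hi array. Measured from the Gr1lo mean of each gene, the complex I median was -1.18, -1.14 and -1.15 in Gr1hi replicates 1, 2 and 3. The complex IV median there, Cox6a2, Cox8b and Cox8c included, was -0.33, -0.28 and -0.33. On the Gr1lo arrays all 5 medians stayed between -0.12 and 0.16. Genes of a complex are not replicates, so the order of the complexes was not tested.

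**Figure D2:**
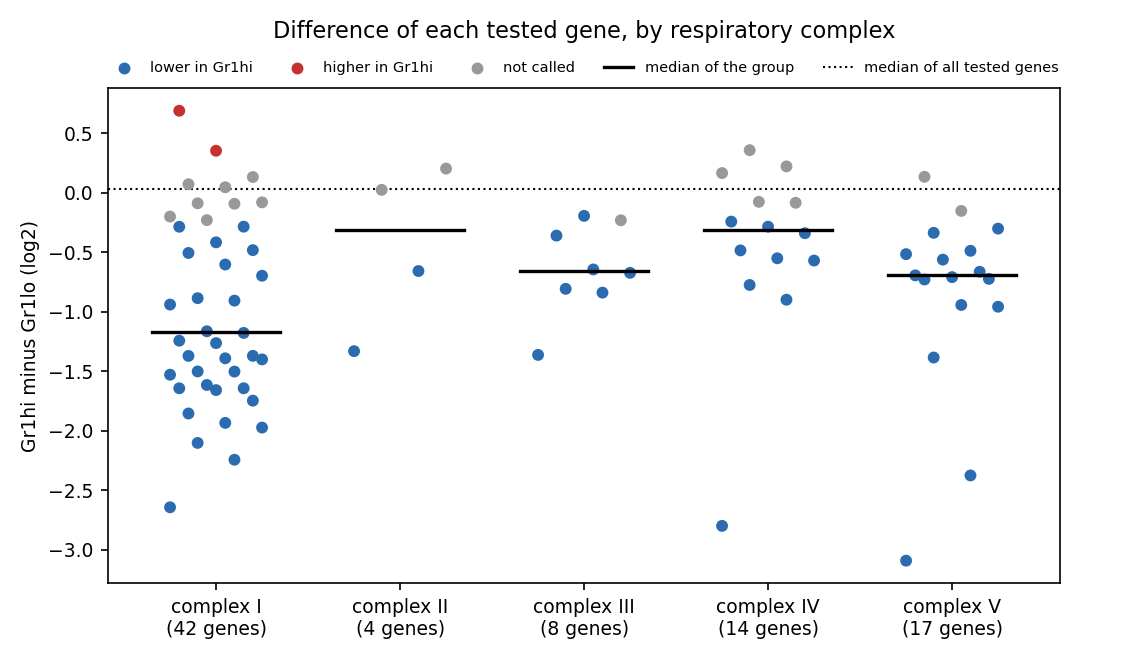
Each point is 1 tested gene; the vertical axis is its difference, Gr1hi minus Gr1lo (log2), by respiratory complex. Points are blue where lower, red where higher and grey where not called (limma adjusted p under 0.05), bars are the medians of the complexes (-1.17, -0.32, -0.66, -0.31 and -0.69), and the dotted line is the median of all tested genes (0.03). In each complex most points lie below the dotted line. Complex IV takes in Cox6a2, Cox8b and Cox8c, read near the absent-transcript level. Complex I takes in 8 assembly factor genes.

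Complex I oxidises NADH and hands the electrons to ubiquinone. Of its 42 tested genes 32 fell, 22 of them at least 2-fold, and 2 rose. The 34 genes named as its subunits, Ndufa4 among them, had a median difference of -0.90 (25 fell, 1 rose). The 8 genes of assembly factors, proteins that build the enzyme without staying in it, had one of -1.51 (7 fell, 1 rose).

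The NADH-oxidising module, at the tip of the arm that reaches into the matrix, held 9 tested genes, of which 6 fell and 1 rose (median -0.48); on the median-centred scale Ndufa2, Ndufa6 and Ndufv3 of the 6 turned to 0.19, 0.17 and 0.26. Ndufv1, the subunit that binds NADH and its flavin cofactor, read 10.48, 10.45 and 10.41 on the Gr1lo arrays and 8.95, 8.82 and 8.98 on the Gr1hi arrays. Every Gr1hi array lay below every Gr1lo array by over 1 log2 unit, and the gene fell 2.88-fold (difference -1.53, SE 0.10, limma adjusted p = 2.24e-06). Its 2 other probe sets differed by -1.58 and -1.54.

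In the same module Ndufa7, an accessory subunit, went the other way. Its values were 10.36, 10.51 and 10.60 in Gr1lo and 10.83, 10.89 and 10.80 in Gr1hi. The groups did not overlap, and the gene rose by 0.35 (1.28-fold, SE 0.10, limma adjusted p = 0.0110). All 5 of its probe sets were called higher, by 0.31 to 0.61. The call was lost without Gr1lo replicate 1 (limma adjusted p = 0.0553; 2.41e-05 to 1 over all alternatives), and on the control-centred scale the difference was 0.10 and not called.

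The quinone-reducing module, between that tip and the membrane, had 5 tested genes, all of which fell (median -1.40). Ndufs8, which carries iron-sulfur clusters of the electron path, read 11.97, 12.22 and 12.00 in Gr1lo and 10.67, 10.61 and 10.74 in Gr1hi. It fell 2.62-fold with no overlap (difference -1.39, SE 0.09, limma adjusted p = 2.11e-06). Of its 6 probe sets, 5 fell by 1.18 to 1.47, and the sixth, with a mean of 3.38, differed by -0.18 and was not called. Ndufa5, the gene of this module with the largest difference and chosen after its values were seen, fell from 9.86 ± 0.20 to 7.76 ± 0.17.

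Of the 19 tested genes of the membrane arm, which holds the proton channels, 13 fell and 0 rose (median -0.89). On the median-centred scale Ndufb7, Ndufb8 and Ndufb11 turned to 0.39, 0.07 and 0.39. Ndufc2, an accessory subunit, read 11.87, 11.97 and 11.89 in Gr1lo and 10.08, 10.06 and 10.02 in Gr1hi. Its groups stood far apart, and it fell 3.62-fold (difference -1.85, SE 0.08, limma adjusted p = 2.33e-07). Ndufb5 fell from 11.16 ± 0.19 to 9.55 ± 0.05. Ndufab1, the mitochondrial acyl carrier protein, which sits in both arms and was counted here with the membrane arm, had the largest difference of any complex I subunit gene and was chosen for it; it fell from 11.50 ± 0.33 to 9.25 ± 0.14.

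A set of complex I genes hardly differed on the deposited scale. Ndufb9 read 11.51, 11.63 and 11.65 in Gr1lo and 11.63, 11.68 and 11.62 in Gr1hi, and Ndufa8 differed by 0.07 (95% interval -0.10 to 0.25). The groups overlapped for Ndufb9, and its interval ran from -0.13 to 0.22. Both passed the test as higher on the median-centred scale (differences of 0.72 and 0.75). The other complex I subunit genes that did not pass were Ndufs4, Ndufs5, Ndufa1, Ndufa3, Ndufs1 and Ndufa13, with differences from -0.23 to 0.13. On the median-centred scale all of these were called higher too, by 0.45 (Ndufs4) to 0.81 (Ndufa13). On that scale 65.6% of all tested genes rose. These subunits lie in the same modules as ones that fell.

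**Figure D3:**
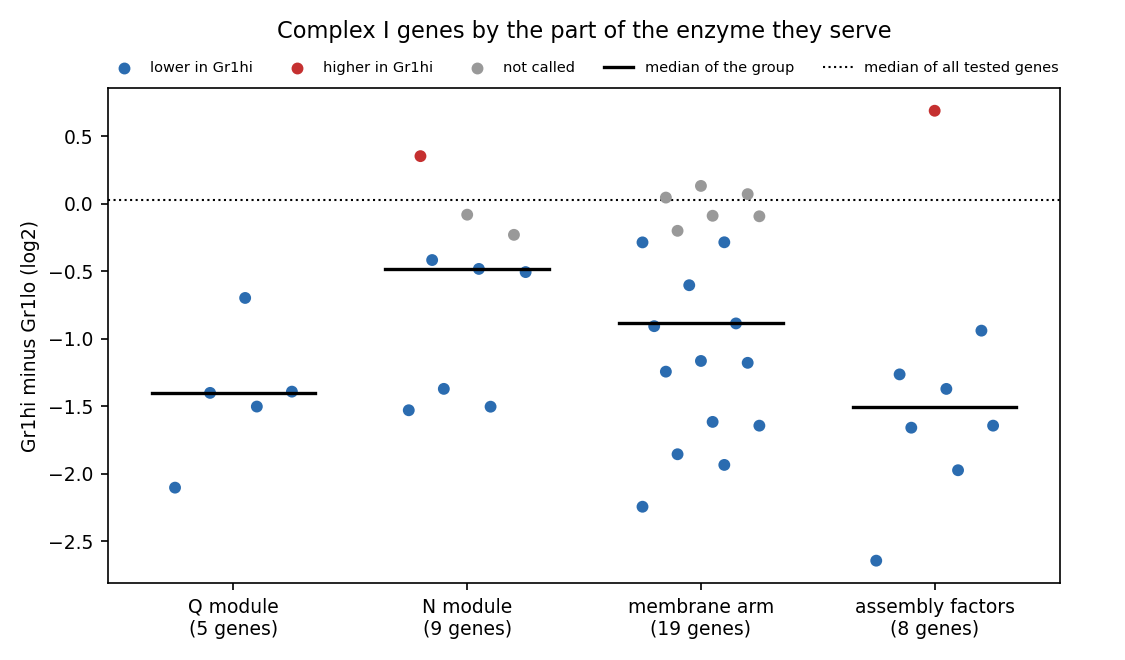
Each point is 1 tested complex I gene, placed by the part of the enzyme it serves; the vertical axis is Gr1hi minus Gr1lo (log2), with Ndufa4 left out. Bars are medians (-1.40 for the 5 Q module genes, -0.48 for the 9 N module genes, -0.89 for the 19 membrane arm genes and -1.51 for the 8 assembly factors), and the red points are Ndufa7 and Ndufaf7.

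Among assembly factors, Ndufaf7, a methyltransferase that acts on a core subunit, was the exception. It read 7.29, 7.07 and 7.03 in Gr1lo and 7.91, 8.16 and 7.40 in Gr1hi. Gr1hi replicate 3 lay within 0.11 of the highest Gr1lo array, and the gene rose by 0.69 (1.61-fold, SE 0.21, limma adjusted p = 0.0192). Leaving out Gr1lo replicate 3 (0.0546), Gr1hi replicate 1 (0.0611) or Gr1hi replicate 2 (0.0740) ended that call ( limma adjusted p-values of 2.69e-04 to 0.764 over all alternatives). Ndufaf4, chosen for the largest difference in complex I, read 4.99, 7.19 and 4.07 in Gr1lo and 2.80, 2.62 and 2.91 in Gr1hi. The Gr1hi arrays lay between 2.62 and 2.91, around the highest absent-transcript control (2.77), and Gr1lo replicate 2 stood more than 2 units above the other Gr1lo arrays, so the size of its difference (-2.64, SE 0.63, limma adjusted p = 0.00548) is poorly fixed. The other 6 assembly factor genes were all called lower, with differences from -1.97 to -0.94; those of Ndufaf5 and Ndufaf6 (-1.64 and -1.66) end at Gr1hi means of 2.99 and 2.73, near or within the absent-transcript level, and their size depends on that floor.

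Ndufa4 is named for complex I, although its protein is now counted as a subunit of complex IV. It read 11.80, 12.02 and 11.93 in Gr1lo and 10.22, 10.19 and 10.12 in Gr1hi. The gene fell 3.36-fold with no overlap (difference -1.75, SE 0.09, limma adjusted p = 4.68e-07), a larger difference than that of any tested complex IV gene but Cox6b2.

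Complex II, succinate dehydrogenase, also serves the citric acid cycle. It has 4 nuclear subunits, and they did not move together. Sdhc, a membrane anchor, read 8.29, 8.53 and 8.18 in Gr1lo and 6.93, 7.14 and 6.93 in Gr1hi, a 2.51-fold fall (difference -1.33, SE 0.16, limma adjusted p = 7.17e-05). Its anchor partner Sdhd read 9.992, 10.27 and 9.996 in Gr1lo and 10.09, 10.17 and 10.08 in Gr1hi. For Sdhd the groups overlapped and the difference was 0.03 (95% interval -0.23 to 0.28, limma adjusted p = 0.862). On the median-centred scale Sdhd was called higher, by 0.70.

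The catalytic pair of complex II was split in the same way. Sdha, the flavin subunit that oxidises succinate, fell from 10.68 ± 0.13 to 10.02 ± 0.06, which is 0.66 (SE 0.10, limma adjusted p = 4.54e-04), whereas it differed by 0.02 on the median-centred scale. Sdhb, the iron-sulfur subunit, read 10.69, 10.78 and 10.98 in Gr1lo and 10.89, 11.07 and 11.10 in Gr1hi. These ranges overlap, and the difference of 0.20 did not pass the test (95% interval -0.04 to 0.44, limma adjusted p = 0.132). On the median-centred scale Sdhb was called higher, by 0.88. A dim probe set of Sdha with a mean of 3.44 was called higher by 0.68, and a dim one of Sdhc with a mean of 4.20 differed by 0.22 without a call.

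Complex III passes electrons from ubiquinol to cytochrome c. Of its 8 tested genes 7 fell, 1 of them at least 2-fold, and Uqcrq did not pass (difference -0.23, adjusted p = 0.117). Uqcrc1, a core protein on the matrix side, read 10.07, 10.36 and 10.21 in Gr1lo and 8.83, 8.97 and 8.75 in Gr1hi. It fell 2.57-fold with over 1 unit between the groups (difference -1.36, SE 0.12, limma adjusted p = 1.14e-05), while its partner Uqcrc2 fell by 0.64, from 12.32 ± 0.09 to 11.67 ± 0.05. Uqcrc1 was the only complex III gene that fell on all 3 scales.

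Uqcrfs1, the Rieske iron-sulfur protein and the only redox subunit of complex III in the set, fell from 10.29 ± 0.09 to 9.61 ± 0.09. Among the small subunits, Uqcrb fell by 0.84 and Uqcr11 by 0.81, both calls lost on the median-centred scale. Uqcr10 fell by 0.36 (limma adjusted p = 0.0360) and was called higher, by 0.32, on the median-centred scale. Uqcrh, the hinge protein, fell by 0.19 (limma adjusted p = 0.0457), from 11.91 ± 0.05 to 11.72 ± 0.04, and lost the call whichever array was left out. Its other probe set differed by -0.03 and was not called. On the median-centred scale Uqcrh and Uqcrq were called higher, by 0.48 and 0.44.

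Complex IV, cytochrome c oxidase, reduces oxygen to water. Its nuclear subunits come partly in pairs of isoforms, a common form and forms of muscle, lung or testis. Of 9 tested genes of common or single forms 7 fell, with a median of -0.48, and 0 of them fell at least 2-fold. Cox5a, which helps to hold the catalytic core, read 13.13, 13.26 and 13.03 in Gr1lo and 12.24, 12.17 and 12.31 in Gr1hi. The groups stood apart, and the gene fell 1.86-fold (difference -0.90, SE 0.08, limma adjusted p = 9.53e-06). Cox7a2 fell by 0.77, Cox7c by 0.57, Cox6c by 0.55, Cox5b by 0.48, Cox4i1 by 0.34 and Cox6b1 by 0.28. Cox7c was read from a dim probe set (5.14 ± 0.08 in Gr1lo and 4.57 ± 0.20 in Gr1hi). The other bright probe set of Cox6b1 differed by -0.20 and was not called.

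On the median-centred scale Cox5a still fell, and Cox7a2 lost its call (difference -0.10). The differences of Cox7c, Cox6c, Cox5b, Cox4i1 and Cox6b1 turned there to 0.11, 0.13, 0.19, 0.34 and 0.39, of which the last 2 were called higher. Cox6a1 read 13.67, 13.68 and 13.78 in Gr1lo and 13.62, 13.71 and 13.58 in Gr1hi. Its groups overlapped and it differed by -0.08 (95% interval -0.21 to 0.06; limma adjusted p = 0.307), but its second probe set fell by 0.34. Cox8a read 10.30, 10.46 and 10.48 in Gr1lo and 10.61, 10.67 and 10.63 in Gr1hi. It differed by 0.22 without overlap but did not pass (limma adjusted p = 0.0710), while its second bright probe set was called higher by 0.27. On the median-centred scale Cox6a1 and Cox8a were called higher, by 0.60 and 0.90.

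Cox7a2l, a relative of Cox7a2 described as a factor for supercomplexes of complexes III and IV, stood at the border of the test. On the median-centred scale it was called higher, by 1.03. It read 10.69, 10.23 and 10.59 in Gr1lo and 10.99, 10.69 and 10.90 in Gr1hi. The lowest Gr1hi array was level with the highest Gr1lo array to within 0.01, and the difference of 0.36 had a limma adjusted p of 0.0501. It passed without Gr1lo replicate 1 (0.0344) or Gr1hi replicate 2 (0.0374; limma adjusted p-values of 1.05e-04 to 1 over all alternatives).

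The tissue forms of complex IV were close to background except Cox6b2. Cox4i2, Cox7a1 and Cox7b2 were among the genes that did not pass the filter. Cox6a2 (2.92 ± 0.09 and 3.09 ± 0.15), Cox8b (2.85 ± 0.08 and 2.60 ± 0.06) and Cox8c (2.88 ± 0.21 and 2.79 ± 0.23) had means within 0.32 of the highest absent-transcript control, and the fall called for Cox8b (limma adjusted p = 0.0400) lies within that range of background and was lost on leaving out any array but Gr1hi replicate 2. Cox6b2, known as the form of testis, read 6.89, 6.30 and 6.33 in Gr1lo and 3.54, 3.63 and 3.95 in Gr1hi. No Gr1hi array came within 2 units of a Gr1lo array, and the gene fell 6.96-fold (difference -2.80, SE 0.23, limma adjusted p = 5.98e-06), while its common counterpart Cox6b1 fell from 12.89 ± 0.05 to 12.61 ± 0.05. Cox6b2 and Cox5a were the complex IV genes that fell on all 3 scales.

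Complex V had 17 tested genes, of which 15 fell, 3 of them at least 2-fold, and 0 rose. The largest falls were in the c-ring, the rotor that turns as protons pass. Its subunit is encoded by 3 genes, Atp5g1, Atp5g2 and Atp5g3, whose mature proteins are identical and whose import signals differ. Atp5g1 read 10.10, 10.79 and 10.10 in Gr1lo and 6.93, 7.44 and 7.36 in Gr1hi. The groups lay over 2 units apart, and the gene fell 8.52-fold (difference -3.09, SE 0.22, limma adjusted p = 2.62e-06), the largest difference among all 85 genes.

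Atp5g2 read 10.61, 11.01 and 10.48 in Gr1lo and 8.69, 8.13 and 8.15 in Gr1hi, which is a 5.19-fold fall (difference -2.37, SE 0.19, limma adjusted p = 5.50e-06). Atp5g3 read 12.90, 12.96 and 12.97 in Gr1lo and 11.87, 12.10 and 11.99 in Gr1hi, a 1.94-fold fall (difference -0.96, SE 0.08, limma adjusted p = 5.50e-06). All 3 c-ring genes fell on all 3 scales without overlap. The 95% interval of Atp5g3 (-1.13 to -0.79) lay outside those of Atp5g1 (-3.58 to -2.60) and Atp5g2 (-2.80 to -1.95); a test of the difference between paralogues was not run.

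**Figure D4:**
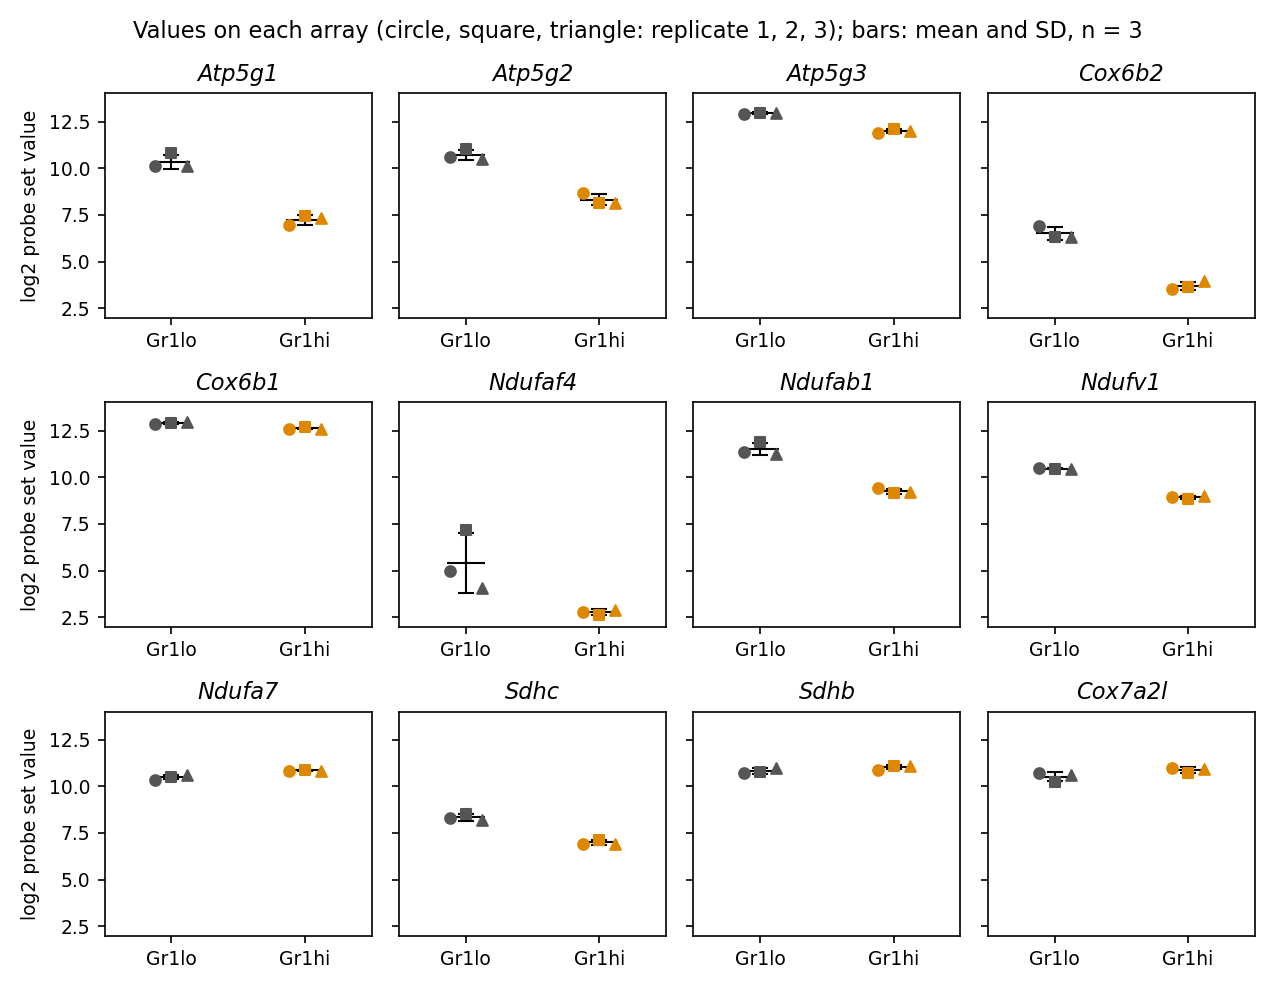
Log2 probe set value on each array for 12 genes, Gr1lo in grey and Gr1hi in orange; circle, square and triangle are replicates 1, 2 and 3, and lines are means with SD (n = 3). Atp5g1 and Cox6b2 drop by 3.09 and 2.80, Atp5g3 and Cox6b1 by 0.96 and 0.28, and the arrays of Sdhb overlap.

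The medians of the other parts of ATP synthase were -0.66 for the catalytic head and central stalk, -0.63 for the peripheral stalk and -0.52 for the small membrane subunits, beside -2.37 for the c-ring. All 5 genes of the catalytic head and its central stalk fell, by 0.30 to 0.94. On the median-centred scale Atp5a1 still fell, Atp5b, Atp5c1 and Atp5d were not called (-0.05, 0.19 and 0.01), and Atp5e was called higher (0.37). Atp5a1, the alpha subunit, read 11.90, 12.00 and 11.95 in Gr1lo and 11.01, 11.11 and 10.91 in Gr1hi, and fell 1.92-fold with no overlap (difference -0.94, SE 0.08, limma adjusted p = 1.12e-05). Of the peripheral stalk, which holds the head still, 3 of 4 genes fell. Atp5o, which joins that stalk to the head, fell from 10.80 ± 0.09 to 9.41 ± 0.10, a 2.61-fold difference. Atp5pb, the b subunit of the same stalk, read 12.95 ± 0.03 and 12.80 ± 0.06 and did not pass (difference -0.15, limma adjusted p = 0.0660). Of 5 small membrane subunit genes 4 fell, by 0.34 to 0.72, and Atp5l differed by 0.13 without a call (95% interval -0.04 to 0.31). Of those 4, Atp5j2 and Atp5md turned to 0.16 and 0.34 on the median-centred scale, as did Atp5h of the peripheral stalk, to 0.11. Atp5pb and Atp5l were called higher there, by 0.52 and 0.81.

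The starts of these genes were searched for motifs because many of them are known targets of NRF1, a factor for nuclear genes of respiration. RefSeq promoter sequences (build GRCm38.p6), read over the 250 bases before the start, were matched for 74 of the 90 genes. The NRF1 palindrome, GCGCA followed at once by its reverse complement TGCGC and so identical on both strands, was in 4 of the 74 (5.41%) and in 1.25% of 14369 promoters of the same length. CCGGAAGT, bound by ETS factors such as GABP, was in 4.05% and 4.47% on either strand, the YY1 motif AAGATGGCG in 0 of 74 and 0.898%, and the E-box CACGTG in 8.11% and 7.57%. The 4 genes with the NRF1 letters were Ndufaf4, Atp5g2, Cox6a1 and Atp5k, with differences of -2.64, -2.37, -0.08 and -0.72. Shown here are the 250 bases before the start of a gene that fell, Atp5g2 (chr15:102671048-102671297, minus strand), and of one that did not pass the test, Cox6a1 (chr5:115348959-115349208, minus strand), both 5′ to 3′ in the direction of the gene with the NRF1 letters in capitals.
Atp5g2: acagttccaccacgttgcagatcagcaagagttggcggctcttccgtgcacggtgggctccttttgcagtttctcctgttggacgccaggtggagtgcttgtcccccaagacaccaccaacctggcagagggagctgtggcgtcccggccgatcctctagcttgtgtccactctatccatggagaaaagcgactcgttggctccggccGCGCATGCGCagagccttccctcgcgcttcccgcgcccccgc
Cox6a1: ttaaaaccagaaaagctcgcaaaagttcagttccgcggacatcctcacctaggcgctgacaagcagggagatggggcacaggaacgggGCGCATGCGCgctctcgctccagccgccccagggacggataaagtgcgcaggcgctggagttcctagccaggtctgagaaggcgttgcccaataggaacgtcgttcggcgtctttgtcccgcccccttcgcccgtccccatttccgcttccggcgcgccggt
Both carry the motif, 42 bases before the start in Atp5g2 and 162 in Cox6a1, counted at its first base. The pair was left by a rule on genome position that took out Ndufaf4 and Atp5k, both of which fell. The median difference was -1.55 for the 4 tested genes with the NRF1 letters and -0.69 for the 67 without them. Whether the motif goes with the difference was not tested.

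The 101 listed genes that serve the same chain under other symbols were chosen with earlier results of these data known. Of 85 tested, 56 fell and 9 rose, with a median difference of -0.93, beside the 31.8% and 24.6% of all tested genes. On the median-centred scale 34 fell and 28 rose, beside 18.2% and 65.6% of all tested genes. Electron carriers fell in 7 of 10 tested genes and rose in 1. Etfb, which brings electrons from fat oxidation to the chain, fell from 11.01 ± 0.16 to 8.28 ± 0.08 (limma adjusted p = 2.19e-07), and Prodh, which feeds in electrons from proline, fell from 7.62 ± 0.22 to 4.28 ± 0.20. Sqor, which does so from sulfide, rose from 11.74 ± 0.20 to 12.51 ± 0.05 (limma adjusted p = 1.44e-04). Cytochrome c itself, Cycs, was chosen after its values were seen and fell from 12.22 ± 0.32 to 10.58 ± 0.10.

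Coenzyme Q synthesis genes fell in 7 of 11 and rose in 1. Among assembly factors with other names, those of complex I fell in 3 of 7 and rose in 2, of complex II fell in 3 of 4, of complex III fell in 2 of 5 and of complex IV fell in 12 of 20 and rose in 1. The complex IV list takes in Gatb, called lower, which encodes a subunit of a mitochondrial tRNA amidotransferase and is not an assembly factor. All 4 genes of ATP synthase assembly and its inhibitor fell. Cox18, which inserts a mitochondrially encoded subunit of complex IV into the membrane, fell from 6.77 ± 0.23 to 3.66 ± 0.05. In contrast, the complex I assembly genes Nubpl, which delivers iron-sulfur clusters, and Lyrm2 rose from 6.56 ± 0.27 to 8.20 ± 0.21 and from 9.51 ± 0.15 to 10.14 ± 0.02; the rise of Lyrm2 was lost on the control-centred scale. Complex I assembly thus held genes that moved in opposite directions, Nubpl up by 1.64 and Ndufaf1 down by 1.97.

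Genes of mitochondrial biogenesis and of mitochondrial DNA expression fell in 10 of 15 and rose in 3. Those that rose were Esrra by 0.67, Polg2 by 0.80 and Mterf1a by 0.80 (limma adjusted p = 0.0246, 0.00674 and 0.00459). The following genes were chosen after their values were seen. Tfam, which packs mitochondrial DNA and starts its transcription, fell from 8.45 ± 0.28 to 5.35 ± 0.30, and Polrmt, the RNA polymerase, fell from 4.90 ± 0.63 to 2.39 ± 0.39, within the absent-transcript level. Nrf1 itself differed by 0.35 and was not called (limma adjusted p = 0.0659), and Gabpa, an ETS factor, fell by 0.93. The listed coactivators Ppargc1a and Ppargc1b had means of 2.25 and 2.49 in Gr1lo and were not tested. Of 9 tested carriers, porins and uncoupling proteins 8 fell and 1 rose.

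**Figure D5:**
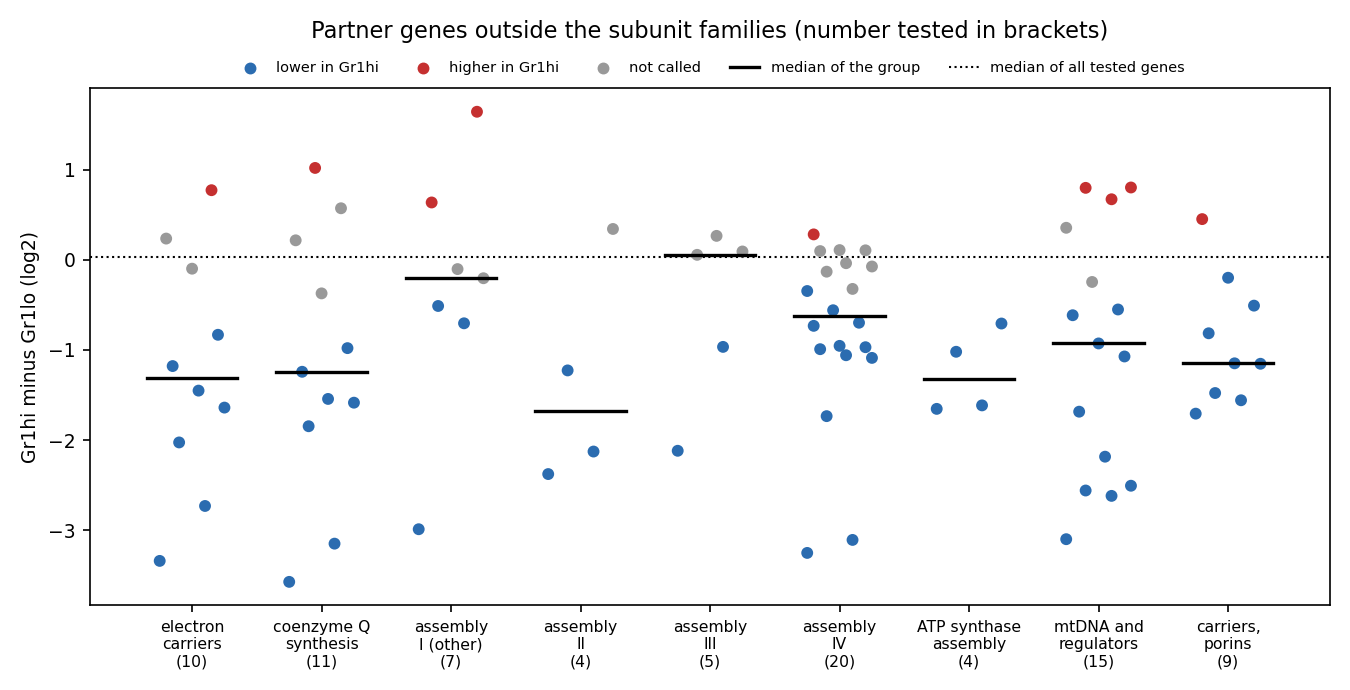
Each point is 1 tested gene that serves the respiratory chain under another symbol, by function, with the number tested in brackets; the vertical axis is Gr1hi minus Gr1lo (log2). Bars are medians, from -1.68 for complex II assembly to 0.05 for complex III assembly, and the dotted line is the median of all tested genes (0.03).

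A mitochondrially encoded complex I subunit could be set beside the nuclear ones. The probe set named ND5, a proton channel of the membrane arm, was chosen after its values were seen. It read 12.71, 12.52 and 12.25 in Gr1lo and 11.06, 10.89 and 11.05 in Gr1hi. All Gr1hi arrays lay over 1 unit below the Gr1lo arrays, and the transcript fell 2.82-fold (difference -1.49, SE 0.12, limma adjusted p = 4.92e-06).

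Several genes had more than 1 bright probe set, which measures the same transcript with other probes. Of 38 genes with at least 2 probe sets of mean 5 or more, 29 were called lower at the one used here. In 19 of the 29 the fall was larger at the dimmest of these probe sets, in 10 it was smaller, and in 0 of the 38 were probe sets of that level called in opposite directions. Below that level, a probe set of Sdha with a mean of 3.44 was called higher, against its bright ones. Of 59 genes with a mean of 10 or more 71.2% fell (median -0.52), and of 26 dimmer ones 88.5% fell (median -1.37). That mean includes the Gr1hi arrays, so a fall lowers it: Atp5g1, at 10.33 in Gr1lo, counts as dimmer with a mean of 8.79. Neither this split nor the correlation that follows is therefore independent of the difference. The share over all tested genes with a mean under 10 was not taken. Across the 85 genes the correlation of mean value and difference was 0.31 (Pearson) and 0.37 (Spearman), as a description, since all genes share the same 6 arrays. Among all 1804 tested genes with a mean of 10 or more, 34% fell and 43.8% rose (median 0.12).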

How the data were processed

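Biotin-labelled RNA of 6 sorted samples was measured on 3' expression arrays. The authors deposited log2 values per probe set, computed by GCRMA according to the submitters' processing notes, with no version or setting stated there. Single values ran from 0.87 to 15.01, and array medians from 2.86 to 2.94. GCRMA equalizes the arrays' distributions as usually run, so a shift of most transcripts would be absorbed. There are no detection calls; the highest of 3 absent-transcript control probe sets was 2.77. The number of arrays limits the precision.

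Of 45101 probe sets, 34945 named 1 gene in the platform annotation and 932 named several. Each gene was read from its brightest probe set, and tested where at least 3 of 6 arrays lay above the 40th percentile of that array. The 2 groups were compared two-sided in R 4.3.3 by a linear model of limma 3.58.1 with a mean-variance trend (lmFit, eBayes), with Benjamini-Hochberg adjustment over 12739 genes and a threshold of 0.05. Intervals are 95% intervals of that fit. Tested on simulated data of the same comparison (12739 genes, 50 of them changed at each size), the fit recovered 32%, 78%, 98% and 98% at log2 changes of 0.5, 1, 2 and 4, with 6 false calls. In the real data 56.4% of tested genes were called, so the adjusted threshold was stricter in the simulation. Its rates therefore do not give the sensitivity of the real test. Medians over genes were described, not tested. Tables and figures used Python 3.11.15, pandas 2.3.3 and matplotlib 3.10.9.

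The members and lists were chosen with earlier results of these data known. Genes were named by rule: in each complex the 5 with the smallest p, those called against the majority, the 2 with the smallest difference and all isoform pairs; of the other respiratory genes, the 3 with the smallest p in each direction. Others named with values were chosen after their values were seen. Alternatives were other filters, probe set rules, variance models, scalings and thresholds, a block for the replicate number, array weights, and arrays left out. Taking the dimmest tested probe set of a gene was added after the data were seen.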

Additional observations from a re-analysis of the deposited data

How the results depend on the processing

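The main limits are the scaling of the arrays and the choice of probe set; the depth measure of an array, signal over background, limits the tissue isoforms of complex IV and the assembly factors. Repeated quantile normalization, robust or trend-free variance estimation and each probe set on its own left 61 to 65 falls and 2 to 3 rises. Over all settings of the genes named by rule, 852 values kept their direction and their side of the test, 57 lost the call, 21 gained one and 16 turned as listed below. A further 16 changed sign with no call on either side, 7 of them on the control-centred scale (Ndufb9, Ndufa8, Sdhb, Sdhd, Cox8a, Cox6a2 and Atp5l). Leaving out single arrays gave 59 to 62 falls, 1 to 2 rises and complex I medians from -1.22 to -1.01. Over all tested genes, 29.8% to 30.8% fell and 21.6% to 23.3% rose in those settings. The replicate numbers were not taken as pairs: same-number correlations were 0.17, 0.00429 and 0.15 for numbers 1, 2 and 3, not all above 0.1, although Xist set the 2 replicate 3 arrays apart from the rest; with the replicate block 62 genes fell and 3 rose, Uqcrh and Cox8b losing their calls and Cox7a2l gaining one.

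Without a filter the medians of complexes I and IV were -1.05 and -0.24, since more genes were included, and with a filter at the 60th percentile that of complex IV was -0.48. With the mean of probe sets complexes I and II were at -0.91 and -0.11. With the dimmest tested probe set 48 genes fell and 3 rose, beside 25.3% and 22.2% of all tested genes. Complexes I to V were then at -0.49, 0.21, -0.64, -0.24 and -0.57. Sdhc, Sdha and Cox5b turned there to 0.22, 0.68 and 0.22, on probe sets with means of 4.20, 3.44 and 3.72. Array weights gave 4 rises and -0.60 for complex V, which was -0.62 without both replicate 3 arrays. A threshold of 0.01 gave 0 rises, where 18.8% of all tested genes rose. A test against a 1.5-fold change gave 33 falls and 0 rises, beside 19% and 10.6% of all tested genes. It gave 1 rise among the other respiratory genes. The cause of these shifts was not tested beyond the alternatives' construction.

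Centring on the median of kept genes gave 30 falls and 29 rises, medians of -0.50, 0.36, 0.0171, 0.36 and -0.0182 for complexes I to V, and 34 falls and 28 rises among the other respiratory genes. It turned Sdha to 0.0180, Uqcrc2 to 0.0314, Uqcrfs1 to 0.00279, Uqcrh to 0.48, Uqcrq to 0.44, Cox5b to 0.19, Cox6c to 0.13, Cox6a1 to 0.60, Cox8c to 0.59, Atp5pb to 0.52, Cox4i1 to 0.34, Cox6b1 to 0.39 and Cox8b to 0.43; of the genes outside the naming rule, Uqcr10, Atp5e and Cox7c were at 0.32, 0.37 and 0.11. Centring on the hybridization controls gave 0 rises, medians of -1.43, -0.57, -0.92, -0.57 and -0.95, and 3 rises among the other respiratory genes.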
